A study of Homo sapiens with 8 samples.

Results

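The genes described here are interferon-stimulated genes, the transcripts that type I and type II interferons switch on in most human cells, measured in the monocytic cell line THP-1, established from a person with leukaemia and labelled as acute myeloid leukemia. The set is a list of 49 gene symbols, and each gene was represented by the 3′ UTR segment with the most reads. Of these 49 genes, 48 had at least 1 read, among 15376 genes with a read in the series, and IFI27 matched no transcript by name. RNA was measured by SLAM-seq: 4-thiouridine (4sU) enters newly made RNA, is alkylated, and is read as a T-to-C change, so that a read with conversions (a labelled read) comes from RNA made while 4sU was present. One group of cells never received 4sU, and 7 groups received 30 uM 4sU for 12 h with the medium exchanged every 3 h, followed by a chase in 3 mM uridine of 0 h, 20 min, 40 min, 1 h, 2 h, 8 h or 12 h. Each group is 1 library of 3′ end reads (QuantSeq), all groups share the THP-1 background, with no interferon, drug or genetic change given in the labels, and the labels do not say whether the times came from separate cultures. There are therefore no replicates, comparisons between 2 libraries carry no test, and p-values measure only how far the 7 chase libraries scatter about a line in time.

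Interferons bind surface receptors whose JAK kinases activate STAT transcription factors; STAT2 is found with IRF9 in the factor ISGF3, which binds the interferon-stimulated response element (ISRE) in promoters. A second element, the gamma-activated site (GAS), serves mainly the response to interferon gamma. The products include sensors of foreign RNA, enzymes that stop translation or degrade RNA, proteins that block viral entry or trap viral particles, and the transcription factors that carry the response further. Monocytes are known for a strong response of this kind.

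The libraries themselves differed. The library without 4sU held 2916032 gene reads against 8301031 to 11224000 in the chase libraries, and it stood apart: its Pearson r of log2 CPM with the chase libraries was 0.785 to 0.812 over 8309 genes, against 0.935 to 0.994 among the chase libraries. CPM is the read count scaled to a common library size, with TMM factors. The 10 monocytic markers, all of them detected, summed to 427 CPM without 4sU and to 805 to 1194 CPM in the chase. Of these, 8 were lower without 4sU than in every chase library, LYZ by the most CPM (45.9 without 4sU and 441 at 0 h), whereas CST3 was at 119 CPM without 4sU and 81.1 to 113 in the chase and MPO at 2.41 and 0.903 to 2.84. Of the markers of plasmacytoid dendritic cells, known for high interferon output, CLEC4C was at 0 in every library, LILRA4 was at or under 0.118 CPM, and IL3RA was at 22.4 CPM without 4sU and 6.59 to 11.7 in the chase. The T, erythroid, epithelial and fibroblast marker sums stayed at or under 3.23 CPM in every library, and the B cell sum was 7.24 CPM without 4sU and 0.874 to 2.71 in the chase. The part of these differences in the comparisons with the library without 4sU was not tested, and in bulk RNA fewer cells of a kind cannot be told apart from less RNA per cell.

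Promoter sequences are shown first, because the ISRE is what many of these genes have in common outside the measurements. RefSeq promoters (GRCh38.p14, from 250 bases before to 50 bases after the annotated start) were available for 38 of the 49 genes, and were searched on both strands for TTTCNNTTTC as the core of the ISRE and TTCNNNGAA as the GAS. The ISRE letters occurred in 23 of the 38 promoters (60.5%), with 2 or more matches in 14, against 996 of all 27305 promoters in the table (3.65%). The GAS letters occurred in 9 of 38 (23.7%), against 7.88% of all promoters. A match is a description of the letters and not a measured binding site. The lines give 30 bases around 1 match each, 5′ to 3′ on the gene's strand, with the match in capitals (GAAANNGAAA is the same motif read on the other strand), for genes whose levels lay far apart in the data.

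MX1, chr21:41420559-41420588, plus strand: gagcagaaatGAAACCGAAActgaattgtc
OAS3, chr12:112938452-112938481, plus strand: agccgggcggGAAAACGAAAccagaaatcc
IFIT1, chr10:89392510-89392539, plus strand: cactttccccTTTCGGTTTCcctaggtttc
IFIT3, chr10:89327865-89327894, plus strand: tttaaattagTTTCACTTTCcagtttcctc
IFI44L, chr1:78620365-78620394, plus strand: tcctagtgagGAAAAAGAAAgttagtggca
IFI6, chr1:27672266-27672295, minus strand: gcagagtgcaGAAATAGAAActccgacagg
IFITM3, chr11:320876-320905, minus strand: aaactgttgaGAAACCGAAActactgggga
EIF2AK2, chr2:37156967-37156996, minus strand: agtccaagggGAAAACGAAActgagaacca
ISG15, chr1:1013380-1013409, plus strand: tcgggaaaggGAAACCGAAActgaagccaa
EPSTI1, chr13:42992272-42992301, minus strand: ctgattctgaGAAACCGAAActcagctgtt

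The first 8 of these genes were higher in every chase library than without 4sU, whereas ISG15 was lower in every chase library. EPSTI1 changed sides, with a ratio to the library without 4sU of 0.586 at 0 h and 1.69 at 12 h. At 0 h the same letters were thus present on both sides. The MX1 match begins at base 12 of the transcript and the EIF2AK2 match, which begins 6 bases before the start, runs across it. The other matches shown lie before the start, beginning 12 bases before it for OAS3, 35 for IFITM3, 107 for ISG15 and 122 for IFIT3. For the wider context, the 250 bases before the start of ISG15, IFIT1 and IFI6 are shown with every ISRE match in capitals. IFIT1 carries 2 neighbouring matches, IFI6 carries 3 over a longer stretch, and in ISG15 the matches overlap in 1 run of capitals.

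ISG15: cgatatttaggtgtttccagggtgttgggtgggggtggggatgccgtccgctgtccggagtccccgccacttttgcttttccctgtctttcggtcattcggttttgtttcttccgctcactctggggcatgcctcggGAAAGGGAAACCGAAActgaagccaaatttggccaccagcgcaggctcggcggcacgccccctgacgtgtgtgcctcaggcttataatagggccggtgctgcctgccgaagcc
IFIT1: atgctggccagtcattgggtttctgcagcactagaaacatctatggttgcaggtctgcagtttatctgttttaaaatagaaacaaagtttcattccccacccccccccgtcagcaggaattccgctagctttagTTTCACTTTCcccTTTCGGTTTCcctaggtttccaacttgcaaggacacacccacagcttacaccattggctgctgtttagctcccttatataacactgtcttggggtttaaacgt
IFI6: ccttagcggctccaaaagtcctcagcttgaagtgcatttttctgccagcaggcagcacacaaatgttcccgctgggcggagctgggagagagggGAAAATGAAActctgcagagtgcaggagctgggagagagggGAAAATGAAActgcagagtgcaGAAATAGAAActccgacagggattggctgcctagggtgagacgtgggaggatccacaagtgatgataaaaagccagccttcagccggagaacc

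Genes with and without the ISRE letters were found among the higher ones at 0 h: of 20 measured genes with a match, 14 were past 2-fold above the library without 4sU (median ratio 4.97, range 0.545 to 25.4), and of 14 without a match, 8 were (median 2.08, range 0.727 to 44.8). Over all 9984 genes tested, 20.6% were past 2-fold higher. OAS1, with the highest ratio in these 2 groups, has no match in this window, which says only that these letters are not there.

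The level of the whole set was compared first between the end of the pulse and cells without 4sU, which asks how far these genes stand above the unlabelled culture. Together the 48 genes took 0.121% of gene reads without 4sU and 0.318% at 0 h, and between 0.310% (20 min) and 0.381% (8 h) over the rest of the chase. Of the 45 whose count averaged 20 or more over both libraries, 31 were past 2-fold higher at 0 h and 0 were past 2-fold lower. Over all 9984 genes tested, 20.6% were past 2-fold higher and 16.6% past 2-fold lower. The median ratio was 4.96 for the set and 1.03 for all genes, and 40 of 45 ratios were above 1, against 51.8% of all. OAS1 had the highest ratio, 44.8 (95% counting interval 12.3 to 372), followed by TRIM22 at 27.6 (95% counting interval 7.51 to 229.7) and MX1 at 25.4 (95% counting interval 11.6 to 69.5). At the other end BST2 was at 0.545 (95% counting interval 0.494 to 0.602), EPSTI1 at 0.586 (95% counting interval 0.400 to 0.867), ISG15 at 0.707 (95% counting interval 0.557 to 0.903) and ADAR at 0.727 (95% counting interval 0.674 to 0.784). GBP2 and GBP1, large GTPases of the interferon gamma response, had 0 reads without 4sU. With a floor of 3 counts put in for that library, GBP2 was 15.7-fold and GBP1 4.05-fold higher at 0 h. Such a ratio is not the lower end of a counting interval. Intervals cover counting error only, and the labels name no molecular identifiers. The library without 4sU differed from the others in many more genes than these, as given above, so these ratios describe 2 libraries; with the 12 h library in place of the 0 h library, chosen after the data were seen, 27 of 44 genes were past 2-fold higher and 1, CMPK2, lower, against 18.5% and 12.5% of all genes. The ratio then lay on the other side of 1 for 6 of 43 genes tested both ways: OASL (1.79 to 0.527), RSAD2 (1.44 to 0.608), USP18 (1.24 to 0.818), HERC5 (0.848 to 1.78), CMPK2 (1.32 to 0.477) and EPSTI1 (0.586 to 1.69). IFIT2, under the minimum count at 12 h, went from 6.11 to 0.851.

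**Figure D1:**
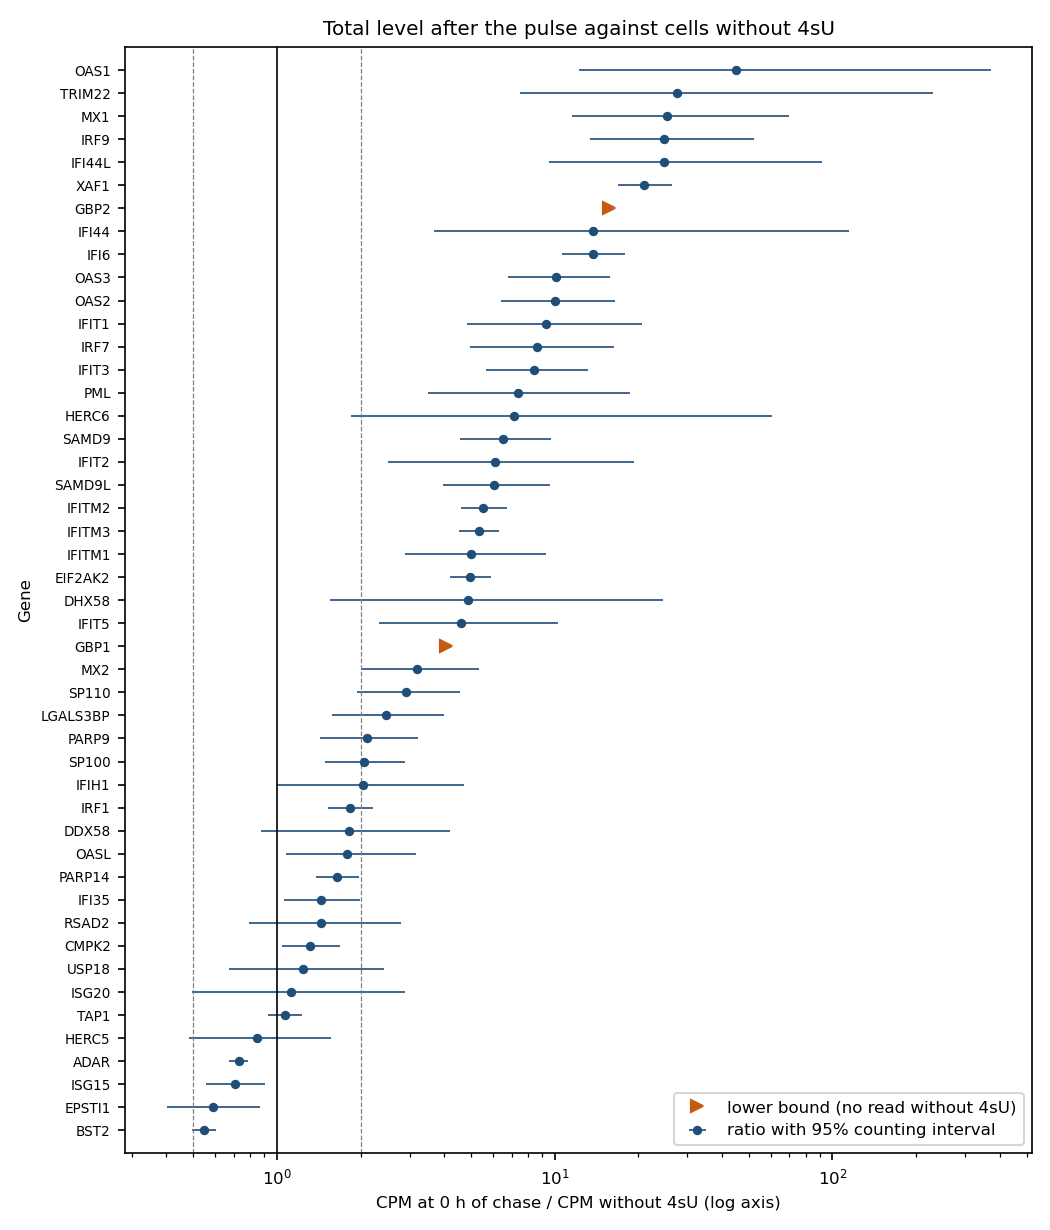
Ratio of CPM at 0 h of chase to CPM without 4sU (log axis) for the 47 interferon-stimulated genes with at least 20 reads in all, 1 library each. Points carry 95% counting intervals, the solid line is a ratio of 1 and the dashed lines are 2-fold. Triangles, marked as lower bounds, are ratios to a floor of 3 counts and carry no interval. Most genes lie right of the upper dashed line, from OAS1 (44.8) downwards, and HERC5, ADAR, ISG15, EPSTI1 and BST2 lie left of 1.

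Labelled reads of these genes were absent without 4sU: 0 of 3531 reads (95% exact interval 0 to 0.104%). At 0 h, 10093 of 27672 reads of the set were labelled, 36.5% (95% exact interval 35.9 to 37.0%). After 20 and 40 min of chase the share was 36.7 and 37.0%, after 1 and 2 h 34.5 and 29.8%, and after 8 and 12 h 8.31 and 4.19%. Up to 40 min it thus lay between 36.5 and 37.0%, and it was far lower at the late times. By gene the median labelled share at 0 h was 46.6% over the 44 genes with enough reads, and 44.5% over all genes tested. It ranged from 10.2% (95% exact interval 8.89 to 11.6%) for IFITM2 to 75.6% (95% exact interval 66.9 to 83.0%) for IFIT5.

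Over the chase, the labelled share fell in 43 of the 44 genes tested (edgeR quasi-likelihood test, Benjamini-Hochberg adjusted p under 0.05), and 95.3% of all 9402 genes tested did so, which is the background for this count. IFITM2 was the exception (adjusted p = 0.309). Not tested for low counts were STAT2, ISG20, DHX58 and GBP1. The half-life of the label, from an exponential fitted to the labelled share, had a median of 3.02 h over 43 resolved genes (quartiles 2.62 and 3.74 h, range 1.33 to 20.7 h), against 2.72 h over 8831 resolved genes (quartiles 2.16 and 3.99 h). This half-life counts dilution by new unlabelled RNA as decay. With only the libraries from 0 to 2 h the decline was called in 15 genes, against 32.3% of all 9268 genes tested. The half-lives therefore rest on the 8 and 12 h libraries. The shortest half-lives at a mean count of 50 or more were those of IRF1 (1.33 ± 0.217 h, SE), IFI44L (2.13 ± 0.253 h), PARP9 (2.15 ± 0.283 h), IFIT5 (2.22 ± 0.345 h), OASL (2.27 ± 0.812 h; 1.34 ± 0.397 h without the 2 h library and 3.87 ± 1.95 h without the 8 h library), PML (2.38 ± 0.626 h), PARP14 (2.41 ± 0.145 h) and SAMD9 (2.45 ± 0.374 h). IRF1, a fast-acting transcription factor, stood below the others, and the next values lay within their errors of each other. The longest were those of IFITM3 (20.7 ± 4.48 h), BST2 (11.4 ± 2.5 h), IFITM1 (9.83 ± 3.33 h), IFI6 (8.22 ± 0.590 h), LGALS3BP (6.73 ± 1.56 h), ISG15 (5.39 ± 1.01 h), IFI35 (4.90 ± 1.44 h) and OAS2 (4.06 ± 0.342 h). BST2 came to 22.4 ± 6.63 h when the 12 h library was left out, above that of IFITM3 in the fit to all libraries, so its place in this order rests on 1 library.

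**Figure D2:**
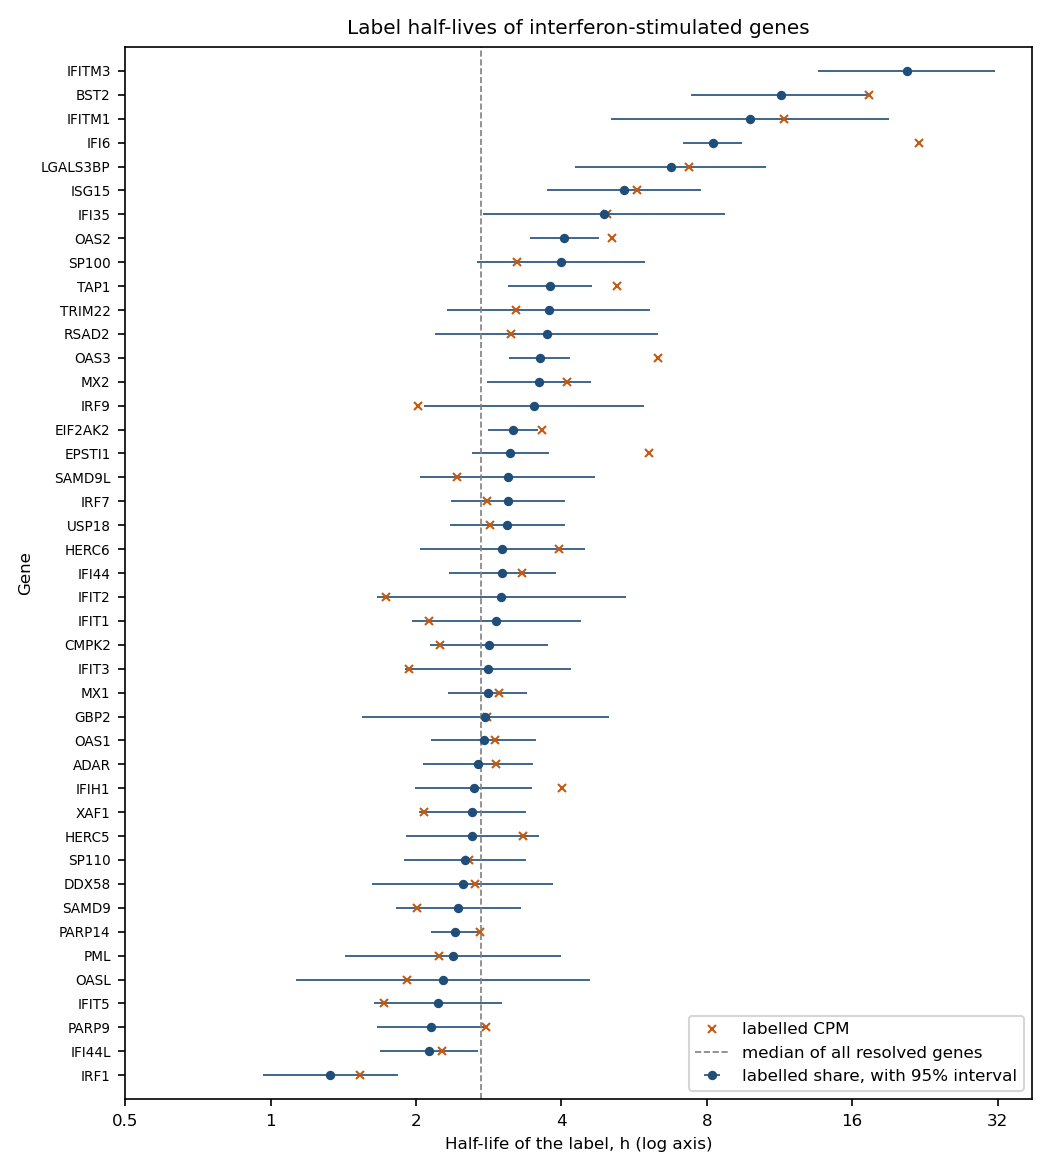
Half-life of the label in hours (log axis) for the 43 resolved interferon-stimulated genes. Points are fits to the labelled share with 95% intervals, crosses are fits to labelled CPM where these resolved, and the dashed line is the median of all resolved genes (2.72 h). IRF1 lies lowest at 1.33 h and IFITM3 highest at 20.7 h, and IFI6 and EPSTI1 differ most between the fits.

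Total levels (labelled plus unlabelled reads) were fitted against hours over the 7 chase libraries, which asks whether the level itself moved after the 4sU was removed. Of 47 genes tested, 11 rose and 15 fell (edgeR quasi-likelihood test, adjusted p under 0.05), and of all 10643 genes tested 27.4% rose and 23.9% fell. Neither share lies far from its background, and the set as a whole moved in both directions. The 11 that rose were OAS3, IFI6, IFIH1, EIF2AK2, BST2, HERC5, PARP9, PARP14, TAP1, ADAR and EPSTI1. The 15 that fell were OASL, IFIT1, IFIT2, IFIT3, IFIT5, IFITM2, IRF7, IRF9, RSAD2, XAF1, SAMD9, SAMD9L, SP100, PML and CMPK2. Between 0 and 12 h alone, 4 of 47 genes were past 2-fold higher (EPSTI1, IFIH1, PARP9 and HERC5) and 10 past 2-fold lower (IFIT1, IFIT2, IFIT3, IFIT5, OASL, IRF9, RSAD2, CMPK2, XAF1 and SAMD9L), against 6.79% and 4.52% of 10527 genes. The 12 h library carried several of these calls: without it 9 genes fell and 15 rose, where 20.7% and 23.3% of all genes did, and the calls for OASL, IRF7, BST2, RSAD2, HERC5, SAMD9L, SP100 and PML were lost. OAS1, OAS2, HERC6, GBP1, MX1 and IFI44L were then called higher, the last 2 with a change of sign. With log2(hours + 1) in place of hours and all 7 libraries, the calls for BST2, RSAD2 and PML were lost. OAS2 was called higher in that fit, at 0.49 log2. Values below are given by role, in the order 0 h, 20 min, 40 min, 1 h, 2 h, 8 h and 12 h for the chase.

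**Figure D3:**
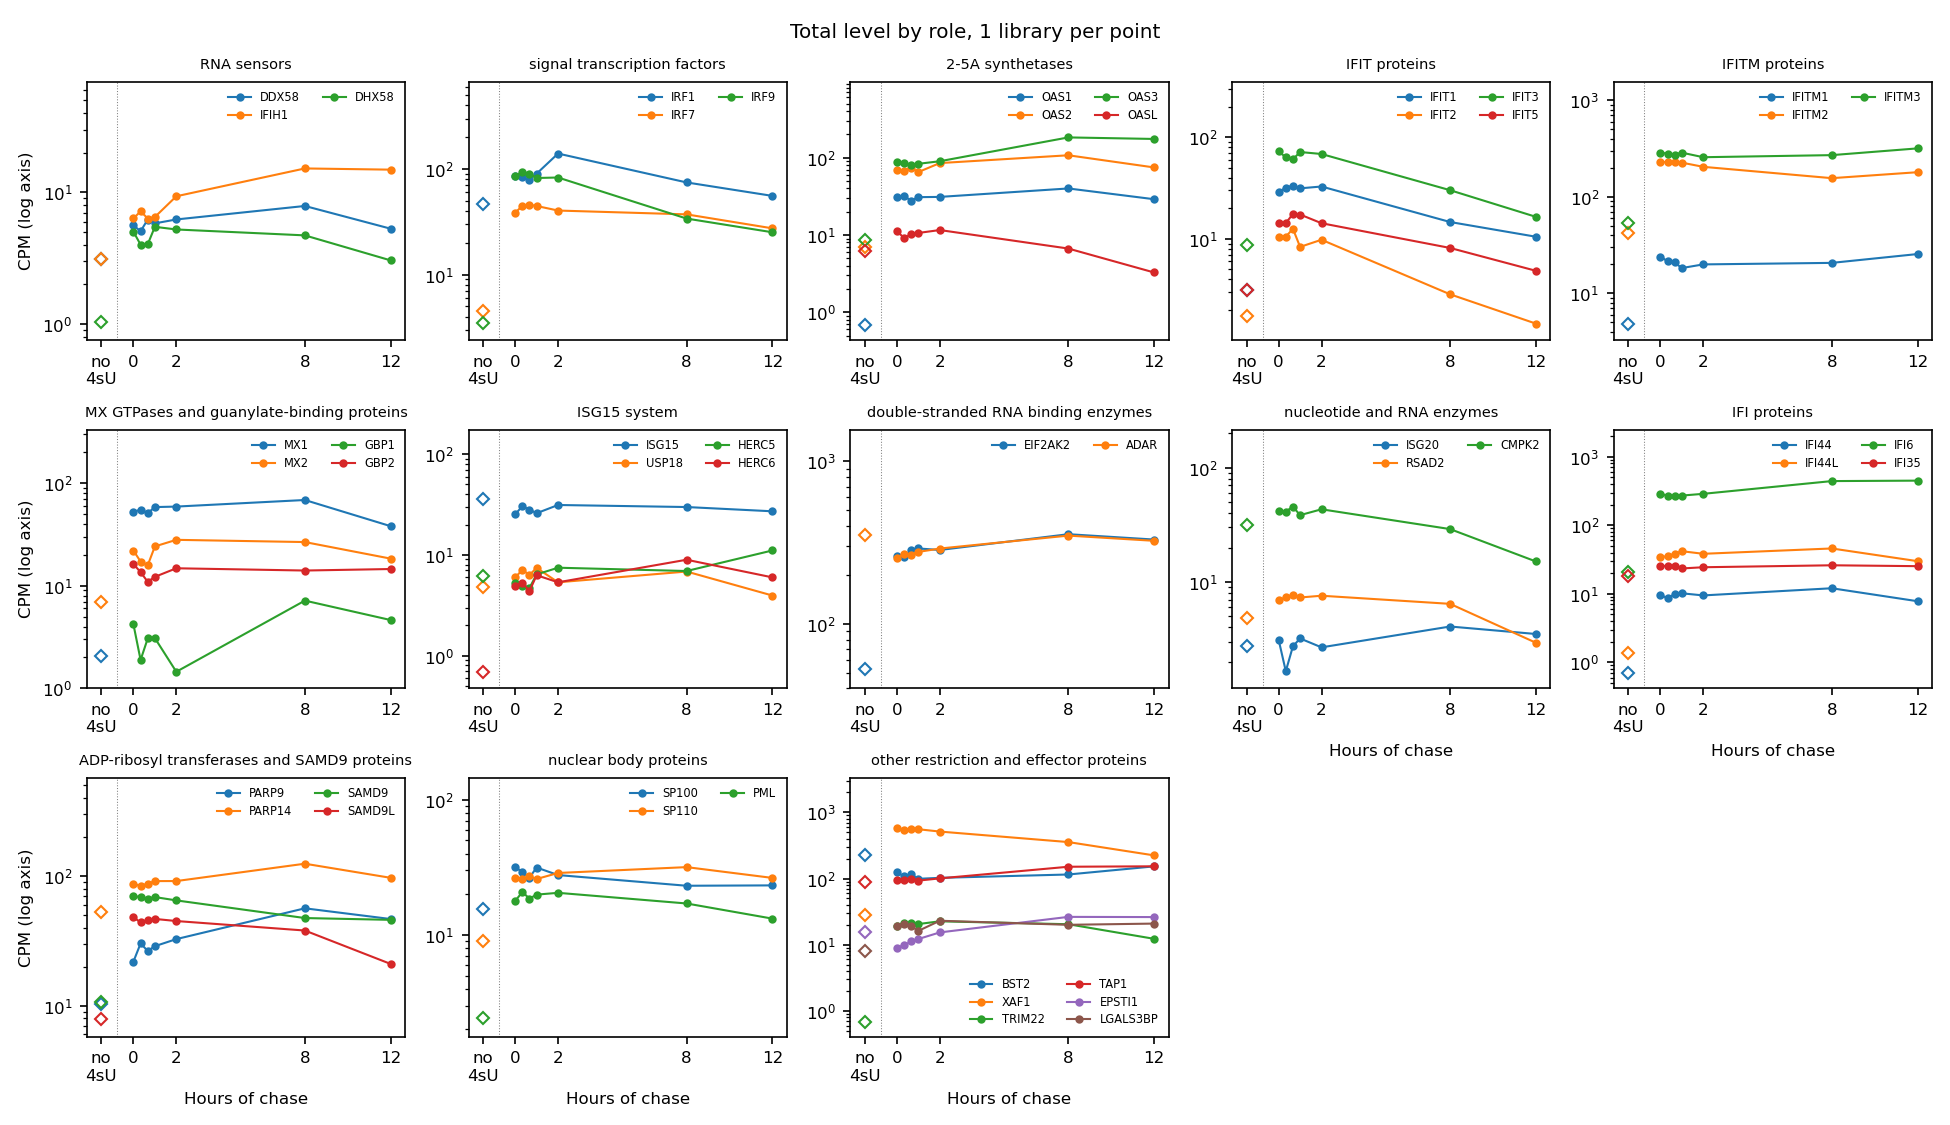
Total level in CPM (log axis) against hours of chase for interferon-stimulated genes with at least 100 reads in all, by role, 1 library per point. Open diamonds left of the dotted line are the library without 4sU (none is drawn for GBP1 and GBP2, which had 0 reads there). All 4 IFIT genes fall between 2 and 8 h while OAS3, IFIH1, PARP9 and EPSTI1 rise.

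RNA sensors come first in the response. DDX58 (RIG-I), IFIH1 (MDA5) and DHX58 (LGP2) are helicases that recognise viral RNA. IFIH1 was at 3.10 CPM without 4sU and at 6.34, 7.20, 6.34, 6.51, 9.35, 15.2 and 14.9 CPM along the chase. It rose by 1.39 ± 0.23 log2, adjusted p = 0.000432 (edgeR), and was at or above 14.9 CPM in both late libraries, higher than in all earlier ones. DDX58 was at 3.10 CPM without 4sU and at 5.62, 5.07, 6.23, 5.82, 6.23, 7.89 and 5.30 CPM along the chase, and DHX58 was at 1.03 CPM without 4sU and at 5.03, 4.01, 4.04, 5.48, 5.23, 4.72 and 3.05 CPM along the chase, and neither total level passed the test. The label half-lives were 2.63 ± 0.376 h for IFIH1 and 2.5 ± 0.551 h for DDX58, while DHX58 had too few reads to be tested. The segment of IFIH1 lies on hg19 at chromosome 2, start 163123589, minus strand, in the 3′ UTR, as the deposited identifier gives it.

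Of the transcription factors that carry the signal, IRF7 and IRF9 fell. IRF9 was at 3.45 CPM without 4sU and at 85.7, 93.8, 90.3, 82.2, 83.0, 33.9 and 25.2 CPM along the chase. IRF9, the DNA-binding subunit of ISGF3 (hg19 chromosome 14, start 24635406, plus strand), was high in the 5 libraries up to 2 h and low in both later ones, and it fell by 1.96 ± 0.14 log2, adjusted p = 2.03e-06, the smallest p in the set among the genes that fell. Every 50-base word in the last 250 bases of the IRF9 transcript also occurs in a transcript named AL136295.5, so its reads could belong to either name. IRF7 was at 4.48 CPM without 4sU and at 38.7, 44.6, 45.9, 44.6, 40.4, 37.2 and 27.4 CPM along the chase. IRF7, which drives type I interferon genes, fell by 0.54 ± 0.14 log2, adjusted p = 0.00682; without the 12 h library the change was -0.27 log2 and not called. IRF1 was at 46.6 CPM without 4sU and at 85.3, 84.5, 79.3, 90.3, 140.0, 74.6 and 55.6 CPM along the chase. IRF1 stood highest at 2 h and lowest at 12 h, and its line in time did not pass the test (-0.63 ± 0.28 (SE) log2 over 12 h, adjusted p = 0.0811), but without the 2 h library it was called lower at -0.51 log2. Its labelled share was 54.1, 50.8, 52.3, 40.8, 18.3, 0.218 and 0.406%, so that most of the labelled share had gone by 8 h. STAT2, the partner of IRF9, had 9 reads in all, at or under the floor in each library, and no ratio is given.

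The oligoadenylate synthetases, which make the signal for RNase L on double-stranded RNA, divided. OAS3 was at 8.62 CPM without 4sU and at 87.4, 85.9, 80.0, 83.2, 89.8, 183 and 174 CPM along the chase, so both late libraries lay above all earlier ones, and it rose by 1.33 ± 0.14 log2, adjusted p = 2.98e-05. The ratio of 12 h to 0 h was 2.00 (95% counting interval 1.83 to 2.18), just short of the 2-fold threshold before rounding. OASL was at 6.21 CPM without 4sU and at 11.1, 9.20, 10.2, 10.6, 11.6, 6.67 and 3.27 CPM along the chase. OASL, a relative that supports RIG-I signalling and makes no oligoadenylate, fell by 1.45 ± 0.28 log2, adjusted p = 0.00112, and without the 12 h library the change was -0.93 log2 and not called. OAS1 and OAS2 had no call. OAS1 was at 0.690 CPM without 4sU and at 30.9, 31.7, 27.7, 30.8, 31.1, 39.9 and 29 CPM along the chase. OAS2 was at 6.90 CPM without 4sU and at 68.9, 68.2, 73.6, 65.1, 85.1, 107 and 74.7 CPM along the chase. Both stood highest at 8 h and were lower again at 12 h, and without the 12 h library both were called higher (OAS1 0.68 log2; OAS2 1.05 log2). Without 4sU, OAS1 was at 2 reads, below every chase library, and so were OAS2 and OAS3 in CPM. Label half-lives were 2.76 ± 0.351 h for OAS1, 4.06 ± 0.342 h for OAS2, 3.60 ± 0.263 h for OAS3 and 2.27 ± 0.812 h for OASL.

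The IFIT proteins bind the ends of viral RNA, and all 4 IFIT genes fell. IFIT3 was at 8.62 CPM without 4sU and at 72.6, 63.3, 60.6, 71.5, 68.4, 30.1 and 16.5 CPM along the chase, a change of -2.01 ± 0.18 (SE) log2 over 12 h, adjusted p = 8.55e-06. The segment of IFIT3 starts on hg19 at chromosome 10, start 91099886, plus strand, and its neighbours IFIT1, IFIT2 and IFIT5 lie on the same chromosome. IFIT1 was at 3.10 CPM without 4sU and at 29, 31.8, 33.4, 31.4, 32.7, 14.6 and 10.5 CPM along the chase, a change of -1.67 ± 0.19 (SE) log2 over 12 h, adjusted p = 3.78e-05. IFIT2 was at 1.72 CPM without 4sU and at 10.5, 10.5, 12.6, 8.33, 9.80, 2.85 and 1.47 CPM along the chase, the steepest fall in the set, at -2.94 ± 0.31 (SE) log2 over 12 h, adjusted p = 2.45e-05. IFIT5 was at 3.10 CPM without 4sU and at 14.2, 14.3, 17.6, 17.4, 14.2, 8.14 and 4.85 CPM along the chase, a change of -1.64 ± 0.23 (SE) log2 over 12 h, adjusted p = 0.000141. In each of the 4 genes the 5 libraries from 0 to 2 h lay above the 8 h library, and the 8 h library above the 12 h library, and in IFIT2 the 12 h library (1.47 CPM) was near the level without 4sU (1.72 CPM). Labelled shares at 0 h were 58.7%, 60.2%, 54.9% and 75.6% for IFIT1, IFIT2, IFIT3 and IFIT5, and half-lives were 2.93 ± 0.601 h, 3.00 ± 0.910 h, 2.82 ± 0.571 h and 2.22 ± 0.345 h. Because the total fell, the label declined faster relative to library size than as a share of the gene's own reads. The half-life of labelled CPM was 1.93 h for IFIT3.

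The IFITM proteins sit in membranes and block fusion of enveloped viruses. IFITM1 and IFITM3 were among the genes with the longest resolved label half-lives. IFITM3 was at 53.8 CPM without 4sU and at 286, 280.3, 273, 286, 257, 270.0 and 317 CPM along the chase, with no call on the total level (0.16 ± 0.08 (SE) log2 over 12 h, adjusted p = 0.120), though without the 8 h library it was called higher at 0.22 log2. Its labelled share was 15.3, 15.2, 17.4, 14, 15.6, 12.6 and 10.3%. The share was lower at 8 and 12 h than before, with 64.4% of the 0 to 40 min share left at 12 h. Its label half-life was 20.7 ± 4.48 h, with a 95% interval of 13.6 to 31.7 h that passes the 24 h limit. By labelled CPM its half-life was not resolved. IFITM2 was at 41.7 CPM without 4sU and at 231, 228, 227, 226, 204, 156 and 179.7 CPM along the chase. IFITM2 fell by 0.44 ± 0.11 log2, adjusted p = 0.00470 (edgeR), and its labelled share, 10.2, 10.5, 10.0, 10.3, 11.6, 11.3 and 7.60%, gave no resolved half-life. At 12 h, 74.3% of the 0 to 40 min share of IFITM2 was left, more than in IFITM3 (64.4%) or IFITM1 (37.6%). IFITM1 was at 4.83 CPM without 4sU and at 24.1, 21.5, 20.9, 18.3, 19.9, 20.7 and 25.5 CPM along the chase, with no call (0.23 ± 0.16 (SE) log2 over 12 h, adjusted p = 0.262). IFITM1 had a half-life of 9.83 ± 3.33 h. Its last 250 bases share all of their 50-base words with a transcript named IFITM2, so its reads could belong to either name. The transcript counted here for IFITM2 is a different case: 0.498% of its own words occur in another gene, and that gene is IFITM3. Without 4sU all 3 were far below the 0 h level: the ratios were 4.98 (95% counting interval 2.90 to 9.28) for IFITM1, 5.53 (95% counting interval 4.6 to 6.71) for IFITM2 and 5.32 (95% counting interval 4.52 to 6.29) for IFITM3.

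The MX proteins are dynamin-like GTPases that trap viral nucleocapsids, and the guanylate-binding proteins act on membranes of intracellular microbes. MX1 was at 2.07 CPM without 4sU and at 52.5, 55.3, 51.1, 58.6, 59.2, 68.7 and 38.1 CPM along the chase. MX2 was at 6.90 CPM without 4sU and at 22.0, 17.2, 15.8, 24.2, 28.1, 26.7 and 18.4 CPM along the chase. MX1 and MX2 were lower without 4sU than in any chase library, peaked at 8 h and at 2 h, and had no call over the chase, though MX1 was called lower without the 8 h library (-0.50 log2) and higher without the 12 h library (0.60 log2). GBP2 was at 0 CPM without 4sU and at 16.3, 13.6, 10.9, 12.2, 14.8, 14.1 and 14.6 CPM along the chase. GBP1 was at 0 CPM without 4sU and at 4.19, 1.89, 3.06, 3.08, 1.45, 7.16 and 4.63 CPM along the chase, from 35 reads at 0 h, and its values overlap between early and late times. GBP1 was called higher without the 0 h library (1.51 log2) and without the 12 h library (2.07 log2), and not with all libraries. The half-lives of the label were 2.81 ± 0.273 h for MX1, 3.60 ± 0.456 h for MX2 and 2.78 ± 0.834 h for GBP2.

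The ISG15 system attaches a small ubiquitin-like protein to other proteins, with HERC5 as ligase and USP18 as the enzyme that removes it. ISG15 was at 35.9 CPM without 4sU and at 25.4, 30.3, 28.2, 25.9, 31.3, 29.9 and 27.1 CPM along the chase. ISG15 was highest without 4sU and had no call along the chase (0.05 ± 0.15 (SE) log2 over 12 h, adjusted p = 0.811); its labelled share at 0 h was the lowest after IFITM2, 11.8% (95% exact interval 7.78 to 16.9%). HERC5 was at 6.21 CPM without 4sU and at 5.27, 4.95, 4.70, 6.39, 7.46, 6.92 and 11.1 CPM along the chase. It rose by 0.96 ± 0.25 log2, adjusted p = 0.00787, the 12 h library stood above all others, and without that library the change was 0.65 log2 and not called. USP18 was at 4.83 CPM without 4sU and at 5.98, 7.08, 6.34, 7.42, 5.34, 6.83 and 3.95 CPM along the chase, and HERC6 was at 0.690 CPM without 4sU and at 4.91, 5.31, 4.37, 6.28, 5.34, 8.95 and 5.98 CPM along the chase, and neither passed the test, although HERC6 was called higher without the 12 h library (1.33 log2). USP18 had the highest labelled share at 0 h after IFIT5, 70.0%, and half-lives were 5.39 ± 1.01 h for ISG15, 2.61 ± 0.424 h for HERC5, 3.09 ± 0.432 h for USP18 and 3.02 ± 0.607 h for HERC6. For HERC6 it came to 1.73 ± 0.605 h when the 8 h library was left out.

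EIF2AK2 (PKR), a kinase that stops translation on double-stranded RNA, and ADAR, which converts adenosine to inosine in such RNA, both rose. EIF2AK2 was at 52.8 CPM without 4sU and at 262, 259, 283, 291, 285, 356 and 330.3 CPM along the chase, a change of 0.41 ± 0.09 (SE) log2 over 12 h, adjusted p = 0.00316. ADAR was at 350.1 CPM without 4sU and at 255, 269, 267, 277, 291, 349 and 324 CPM along the chase, a change of 0.41 ± 0.09 (SE) log2 over 12 h, adjusted p = 0.00283. Their levels in the chase ran close together, but without 4sU EIF2AK2 was below every chase library, and ADAR was at the level of the 8 h library and above the others. At 0 h 57.3% of EIF2AK2 reads and 51.2% of ADAR reads were labelled, and the half-lives were 3.17 ± 0.192 h and 2.69 ± 0.362 h.

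Among enzymes acting on nucleotides and RNA, RSAD2 (viperin) and its chromosomal neighbour CMPK2, a nucleotide kinase, both fell. CMPK2 was at 31.7 CPM without 4sU and at 41.9, 41.4, 45.7, 38.5, 43.3, 29 and 15.1 CPM along the chase, a change of -1.29 ± 0.19 (SE) log2 over 12 h, adjusted p = 0.000205. RSAD2 was at 4.83 CPM without 4sU and at 6.94, 7.31, 7.76, 7.31, 7.57, 6.43 and 2.93 CPM along the chase, a change of -0.95 ± 0.30 (SE) log2 over 12 h, adjusted p = 0.0198, and without the 12 h library -0.24 log2 and not called. RSAD2 was lower at 12 h than in any other library and lay between 6.43 and 7.76 CPM at the other chase times. ISG20, an exonuclease, had 206 reads in all and was at 2.76 CPM without 4sU and at 3.11, 1.65, 2.73, 3.20, 2.67, 4.07 and 3.5 CPM along the chase, with no call and no tested decline. Half-lives were 2.83 ± 0.404 h for CMPK2 and 3.73 ± 1.01 h for RSAD2.

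IFI6, IFI44, IFI44L and IFI35 are products of the response whose roles are less settled, IFI6 being a membrane protein linked to restriction of flavivirus. IFI6 was at 21.0 CPM without 4sU and at 288, 269, 268, 271, 287, 440.2 and 447 CPM along the chase. IFI6 (hg19 chromosome 1, start 27992572, minus strand) rose by 0.87 ± 0.09 log2, adjusted p = 2.80e-05, and its labelled share was 16.7, 17.3, 17.3, 16.2, 15.7, 8.26 and 6.97%. Relative to library size its labelled reads declined slowly, with a half-life of labelled CPM of 22.0 h against 8.22 ± 0.590 h by share. IFI44L was at 1.38 CPM without 4sU and at 34.1, 35.4, 38.5, 41.8, 38.3, 45.8 and 29.9 CPM along the chase. Its change of -0.04 ± 0.19 (SE) log2 over 12 h, adjusted p = 0.866 was not called, and without the 12 h library it was called higher at 0.56 log2. IFI44 was at 0.690 CPM without 4sU and at 9.45, 8.73, 9.83, 10.2, 9.46, 12.0 and 7.79 CPM along the chase, with no call, and for both genes the library without 4sU lay below every chase library. IFI35 was at 17.9 CPM without 4sU and at 25.8, 25.1, 25.2, 23.4, 24.4, 26.0 and 25.3 CPM along the chase, with no call. IFI44L lost its label quickly (2.13 ± 0.253 h), IFI44 at 3.02 ± 0.392 h and IFI35 at 4.90 ± 1.44 h.

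The ADP-ribosyl transferases PARP9 and PARP14 rose while the poxvirus restriction factors SAMD9 and SAMD9L fell. PARP9 was at 10.3 CPM without 4sU and at 21.9, 30.2, 26.4, 28.8, 32.6, 56.4 and 46.6 CPM along the chase, a change of 1.12 ± 0.21 (SE) log2 over 12 h, adjusted p = 0.000968, and of 1.78 log2 without the 12 h library. PARP14 was at 52.8 CPM without 4sU and at 86.9, 84.0, 87.2, 91.4, 91.5, 125 and 96.9 CPM along the chase, a change of 0.39 ± 0.14 (SE) log2 over 12 h, adjusted p = 0.0365, which was lost in 5 of 7 fits that left out 1 library. Both had short label half-lives, 2.15 ± 0.283 h and 2.41 ± 0.145 h. SAMD9 was at 10.7 CPM without 4sU and at 69.9, 69.0, 66.9, 68.8, 64.9, 47.4 and 45.9 CPM along the chase, a change of -0.64 ± 0.10 (SE) log2 over 12 h, adjusted p = 0.000304. SAMD9L was at 7.93 CPM without 4sU and at 48.0, 44.0, 45.9, 46.7, 45.0, 38.0 and 21.0 CPM along the chase, a change of -0.91 ± 0.17 (SE) log2 over 12 h, adjusted p = 0.00104, and without the 12 h library it was -0.39 log2 and not called. SAMD9 reached its late level by 8 h, while SAMD9L was lowest at 12 h, with half-lives of 2.45 ± 0.374 h and 3.10 ± 0.660 h.

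PML, SP100 and SP110 are proteins of PML nuclear bodies, and the 2 calls among them were weak. SP100 was at 15.5 CPM without 4sU and at 31.8, 29.1, 26.5, 31.5, 27.7, 23.1 and 23.2 CPM along the chase, a change of -0.39 ± 0.14 (SE) log2 over 12 h, adjusted p = 0.0400. PML was at 2.41 CPM without 4sU and at 17.8, 20.8, 18.6, 19.9, 20.5, 17.1 and 13.2 CPM along the chase, a change of -0.46 ± 0.17 (SE) log2 over 12 h, adjusted p = 0.0410. These calls were lost without several single libraries, and without the 12 h library neither was called, at -0.53 log2 for SP100 and -0.21 log2 for PML. With all segments of the gene summed, SP100 was at -0.18 log2 and not called. SP110 was at 8.97 CPM without 4sU and at 26.2, 26.1, 27.2, 25.9, 28.7, 31.7 and 26.4 CPM along the chase, with no call. Half-lives were 3.99 ± 0.817 h for SP100, 2.38 ± 0.626 h for PML and 2.52 ± 0.376 h for SP110.

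The remaining effectors differ in function and moved in both directions. XAF1 was at 27.9 CPM without 4sU and at 587, 530.2, 566, 554, 511, 355 and 223 CPM along the chase. XAF1, a pro-apoptotic partner of XIAP (hg19 chromosome 17, start 6676489, plus strand), was lower at 8 and 12 h than at every earlier time and fell by 1.25 ± 0.10 log2, adjusted p = 4.63e-06, but stayed above the library without 4sU throughout. TRIM22 was at 0.690 CPM without 4sU and at 19.0, 21.6, 21.1, 20.6, 22.6, 20.4 and 12.3 CPM along the chase. TRIM22, a ubiquitin ligase, missed the call (-0.51 ± 0.21 (SE) log2 over 12 h, adjusted p = 0.0581), and passed it without the 0 h library (-0.60 log2), without the 8 h library (-0.74 log2), with DESeq2 size factors in edgeR and with the DESeq2 Wald test (both -0.54 log2). TAP1 was at 90.0 CPM without 4sU and at 95.8, 94.2, 96.8, 92.9, 100.4, 151 and 153 CPM along the chase. TAP1, which carries peptides for MHC class I, rose by 0.84 ± 0.10 log2, adjusted p = 4.31e-05. EPSTI1 was at 15.5 CPM without 4sU and at 9.09, 9.79, 11.3, 12.2, 15.4, 26.4 and 26.2 CPM along the chase. EPSTI1, induced by interferon in epithelial and stromal cells, rose by 1.56 ± 0.22 log2, adjusted p = 0.000147, the largest among the called rises, with 2.2 log2 without the 12 h library, and both late libraries lay above every earlier one. BST2 was at 226 CPM without 4sU and at 123, 108, 116, 99.0, 102, 115 and 152 CPM along the chase. BST2 (tetherin), which holds virions to the cell, rose by 0.41 ± 0.12 log2, adjusted p = 0.0153, and the change was 0.09 log2 and not called without the 12 h library. LGALS3BP was at 7.93 CPM without 4sU and at 19.5, 20.4, 19.1, 16.2, 23.0, 20.0 and 20.9 CPM along the chase, with no call; LGALS3BP is a secreted glycoprotein. Label half-lives were 2.62 ± 0.342 h for XAF1, 3.76 ± 0.928 h for TRIM22, 3.79 ± 0.387 h for TAP1, 3.14 ± 0.292 h for EPSTI1, 11.4 ± 2.5 h for BST2 and 6.73 ± 1.56 h for LGALS3BP.

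A level can fall while the label falls with it, or rise while unlabelled RNA is added, and the 2 pools were therefore separated. Unlabelled CPM at 8 h was above that at 0 h in 35 of 44 genes, with a median ratio of 1.83, against 81.0% of all genes tested and a median of 1.74. Labelled CPM was lower at 8 h than at 0 h in all 44, with a median ratio of 0.194, and 0.161 over all genes. In OAS3 the unlabelled level was 51.1, 53.8, 45.1, 51.9, 60.4, 165 and 168 CPM and the labelled level 36.3, 32.1, 34.8, 31.3, 29.4, 18.1 and 6.21 CPM. In IFIT3 the unlabelled level was 32.8, 26.8, 27.9, 35.3, 36.8, 29 and 16.4 CPM and the labelled level 39.8, 36.6, 32.8, 36.2, 31.5, 1.1 and 0.113 CPM. Unlabelled OAS3 thus more than replaced the label that was lost, whereas unlabelled IFIT3 stayed within its early range or below it and the total fell. In IFI6 the labelled level was 48.1, 46.6, 46.3, 43.8, 45.0, 36.4 and 31.1 CPM, so more of it remained at 12 h than had gone.

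**Figure D4:**
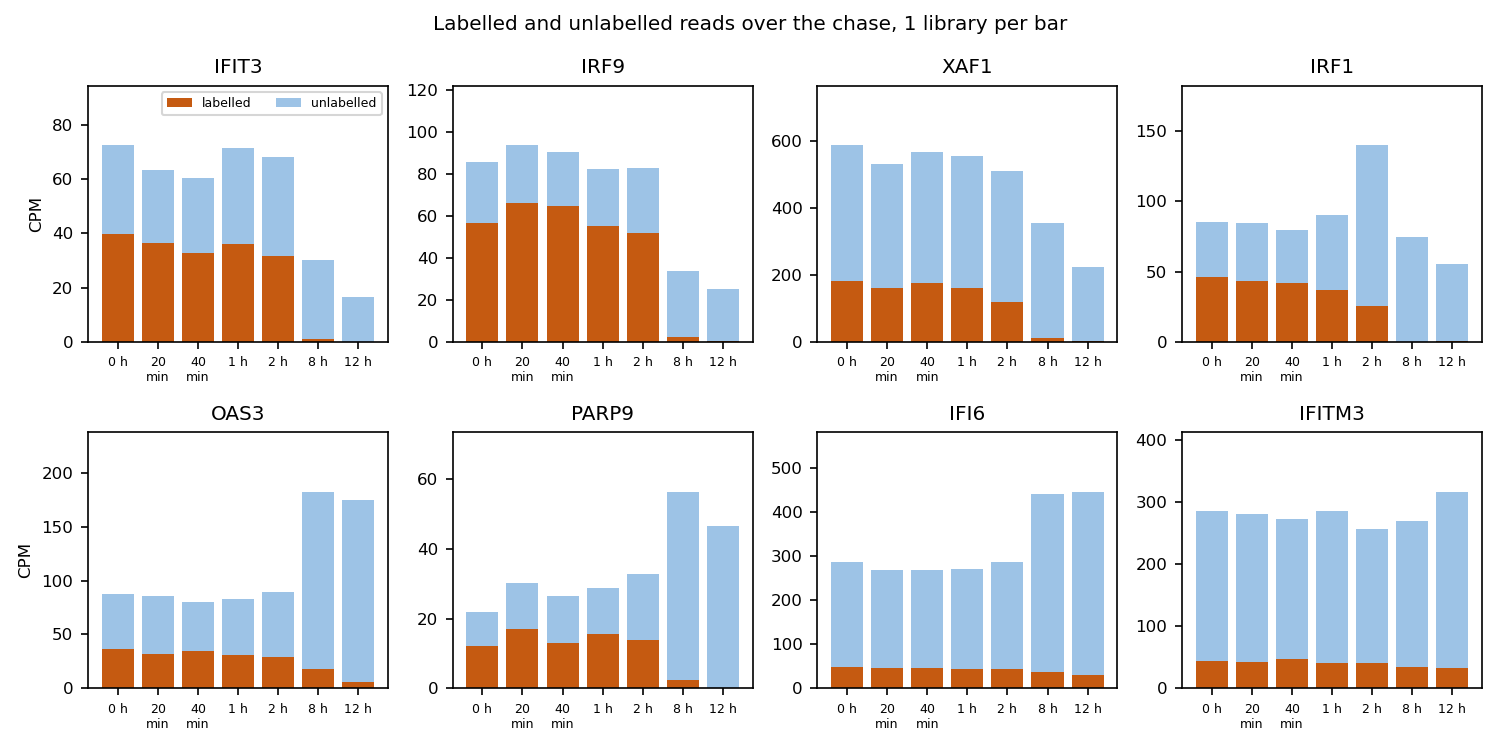
Labelled (dark) and unlabelled (light) CPM at each of the 7 chase times for 8 interferon-stimulated genes, 1 library per bar, stacked from 0. In IFIT3, IRF9 and XAF1 the label goes and the total falls, in OAS3, PARP9 and IFI6 unlabelled reads add to the total, IRF1 peaks at 2 h, and IFITM3 keeps most of its label to 12 h.

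From 8 to 12 h, a comparison chosen after the values were seen, 15 of 47 genes were past 1.5-fold lower and 1, HERC5 (1.60), higher. Of all 10739 genes tested, 4.64% were past 1.5-fold lower and 4.02% higher. The median ratio was 0.746 in the set and 0.998 over all genes, and 10 of 47 ratios were above 1, against 49.6%. The 15 genes were RSAD2 (0.457), OASL (0.491), IFIT2 (0.515), CMPK2, IFIT3, SAMD9L, MX1, USP18, IFIT5, TRIM22, XAF1, DHX58, GBP1, IFI44 and IFI44L. They include the sensor DHX58, IFIT2, IFIT3 and IFIT5, MX1 and the ISG15 protease USP18, and 1 library decides each of these ratios.

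Labelling at the end of the pulse was set beside the sequence of the transcript ends. Only U can be converted, and the T content of the last 250 bases of the transcript ranged from 14.4% (ISG15) to 43.2% (TRIM22), with a median of 30.8% in the set and 31.6% over all genes. Across the 44 genes tested, T content and the labelled share at 0 h had a Spearman rho of 0.755 and a Pearson r of 0.688, and across 9398 genes 0.583 and 0.594. All points come from 1 library and genes are not independent replicates, so this is a description. Low labelled shares in ISG15 (14.4% T) and IFI35 (16.8% T) go with low T content, but IRF7 (16.8% T) had a share of 29.1% against 15.3% in IFI35 at the same content, and IFI6 (29.2% T, 16.7% labelled) and IFITM2 (26.8% T, 10.2% labelled) were lower than genes of like content such as OAS1 (27.6% T, 49.6%) and OAS2 (29.6% T, 53.3%). The half-life was fitted to the change of the share over the chase, with the starting share left free. This does not make the 2 quantities independent, and a link between them was not tested. The label half-life was 8.22 h for IFI6, 2.76 h for OAS1 and 4.06 h for OAS2, and that of IFITM2 was not resolved.

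**Figure D5:**
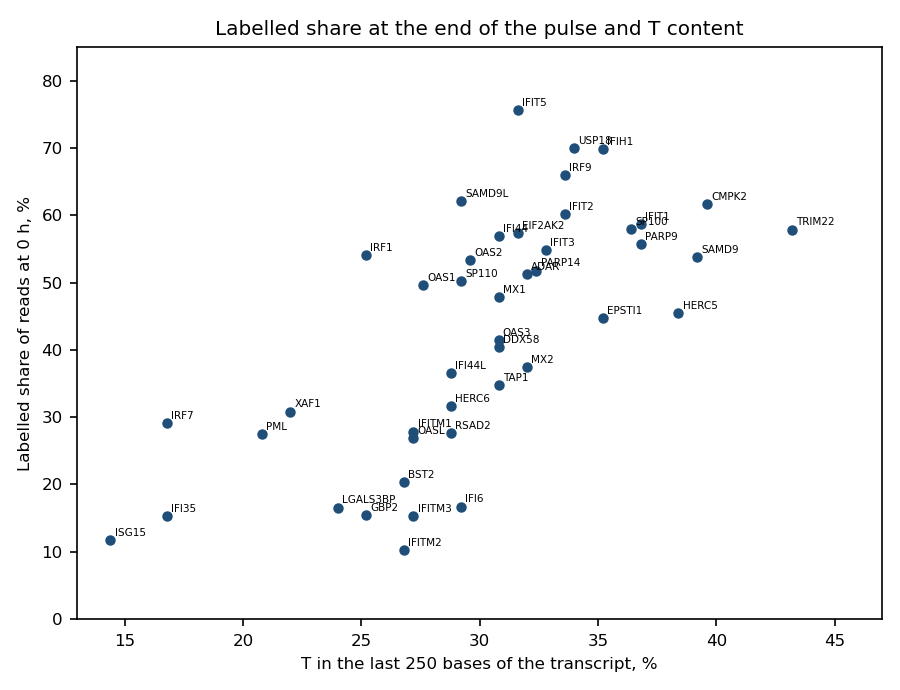
Labelled share of reads at 0 h (%) against the T content of the last 250 bases of the transcript (%), for the 44 interferon-stimulated genes tested, 1 point per gene, all from the 0 h library. ISG15 lies lowest in T content, IRF7 lies above IFI35 at the same content, and IFI6, IFITM2 and IFITM3 lie under genes of like content.

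Other genes of the pathway were taken from a separate list of 48 interferon ligands, receptors, kinases, transcription factors, sensors, adaptors and regulators, of which 38 had a read. The interferon genes on this list were nearly absent: IFNB1 had 1 read, IFNL2 1 read and IFNL1 20 reads in all, of which 15 were labelled. IFNA1, IFNA2, IFNE, IFNK, IFNW1, IFNG and IFNL3 had none. Of the IFNA genes only IFNA1, IFNA2 and IFNA5 were on the list, and the others were not looked up. IFNLR1 had none, and IFNA5 and IKBKE matched no transcript by name. Of 31 genes tested, 20 rose and 1 fell over the chase, where 27.4% and 23.9% of all genes did, and the label declined in 29 of 29. STAT3, a transcription factor, rose by 1.12 ± 0.09 log2, adjusted p = 5.45e-06 (edgeR). STAT3 was at 169 CPM without 4sU and at 78.3, 78.7, 80.2, 71.4, 81.6, 123 and 159 CPM along the chase. IRF8, the myeloid IRF, rose by 1.00 ± 0.10 log2, adjusted p = 1.54e-05. IRF8 was at 249 CPM without 4sU and at 86.8, 92.0, 91.3, 81.7, 90.0, 143 and 161 CPM along the chase. The receptor chains of type I interferon rose as well: IFNAR1 by 1.04 ± 0.10 log2, adjusted p = 1.74e-05 and IFNAR2 by 0.90 ± 0.10 log2, adjusted p = 2.71e-05. IFNAR1 was at 46.6 CPM without 4sU and at 42.0, 44.5, 43.2, 41.1, 43.0, 70.0 and 79.8 CPM along the chase. IFNAR2 was at 167 CPM without 4sU and at 86.0, 82.2, 79.0, 78.0, 80.5, 124 and 141 CPM along the chase. MYD88, the adaptor of most Toll-like receptors, was the gene that fell, by 0.52 ± 0.15 log2, adjusted p = 0.0119. MYD88 was at 6.90 CPM without 4sU and at 60.5, 69.0, 55.2, 56.5, 59.6, 39.5 and 46.3 CPM along the chase.

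Label half-lives of the pathway genes had a median of 2.45 h over 28 resolved genes. The shortest were SOCS3 (1.06 ± 0.238 h), TICAM1 (1.38 ± 0.131 h), CGAS (1.67 ± 0.141 h) and PIAS1 (1.81 ± 0.172 h), and the longest UBE2L6 (4.37 ± 0.731 h), PTPN11 (4.32 ± 0.494 h), TMEM173 (4.19 ± 0.707 h) and IL10RB (4.19 ± 0.711 h). SOCS3 is an induced inhibitor of JAK kinases, and its level did not follow a line. SOCS3 was at 1.72 CPM without 4sU and at 12.3, 31.0, 87.8, 183, 94.3, 24.5 and 49.7 CPM along the chase, a peak at 1 h that a straight line in time does not describe (adjusted p = 0.417). Against cells without 4sU, 7 of 29 pathway genes were past 2-fold higher at 0 h and 7 past 2-fold lower. Of all genes tested, 20.6% were past 2-fold higher and 16.6% past 2-fold lower. The median ratio was 0.900 for the pathway genes, 4.96 for the interferon-stimulated genes and 1.03 for all genes. Both lists rest on the same 2 libraries. The pathway list also holds induced genes such as SOCS3, so it is not a list of upstream genes only. IFNAR2, a receptor chain for type I interferons, was at 0.516 (95% counting interval 0.460 to 0.581) and UBE2L6, the ISG15-conjugating enzyme, at 5.87 (95% counting interval 3.43 to 10.9).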

How the data were processed

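The authors deposited raw counts per 3′ UTR segment, all reads and the reads they call nascent, here called labelled. Per the submitters' processing notes, the tools included Trim Galore 0.6.5 and bcl2fastq 2.17.1.14, with hg19 and dm3 as genome builds. Not given in the sources used here are the aligner, the counter and how many conversions made a read labelled, so labelled shares rest on an unknown threshold. GENCODE 29 named 48045 of 56570 transcripts (84.9%), 5.65% of counts lay in unnamed segments, and 3056 segments on alternative or unplaced contigs and 89 genes with counts equal to another gene's were left out. Each gene is its most covered segment. Totals were fitted against hours in edgeR 4.0.16 (R 4.3.3) with TMM factors, where the mean count reached 20. Label decline was fitted the same way, offset by the gene's own total, where the mean total reached 50 and labelled reads 20, with Benjamini-Hochberg adjustment over all genes and 5 residual degrees of freedom. Half-lives are binomial fits of background plus an exponential, with standard errors widened for excess scatter and limits of 0.25 to 24 h. Share intervals are exact (Clopper-Pearson, scipy 1.17.1) and intervals are at 95%. The edgeR fits of label decline and total level and the half-life fit to the labelled share were tested on simulated data. The DESeq2 fits and the half-life fits to labelled CPM were not. Alternatives were DESeq2 1.42.0, other filters, scalings and covariates, summed segments and leaving out each library. The Drosophila spike-in was left out. The members and gene lists were chosen with earlier results of these data known. Values are given in every library for members called in the total-level fit, past 2-fold between 2 libraries with at least 100 reads, among the 8 shortest or longest half-lives, or without a decline call. For pathway genes the 4 shortest and longest half-lives and the 4 smallest adjusted p in each direction are named. A gene of the pathway list enters the counts but is not reported here by name.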

Additional observations from a re-analysis of the deposited data

How the results depend on the processing

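No called change over the chase turned direction under the alternatives run, but MX1 and IFI44L, not called with all libraries, were called higher without the 12 h library (leaving out each library gave -0.50 to 0.60 log2 for MX1 and -0.29 to 0.56 for IFI44L), and 6 of 43 ratios to the library without 4sU crossed 1 with the 12 h library in place of the 0 h library. No paired analysis was possible because each condition is 1 library. With the 0 to 2 h libraries only, the label decline was called in 15 members and 10 pathway genes, against 32.3% of all genes, and the median member half-life was 4.01 h over the resolved genes. Leaving out 1 library at a time gave 40 to 43 member decline calls, 29 to 29 in the pathway list, and a median half-life of 2.78 to 3.21 h. In these fits 10 to 15 members rose and 9 to 16 fell (9 without the 12 h library). Of the pathway genes 17 to 20 rose and 1 to 1 fell. Of all genes tested in the same fits, 23.3 to 27.2% rose and 20.7 to 25% fell. Against cells without 4sU, a threshold of 1.5-fold put 2 members lower at 0 h (27.5% of all genes), and the 12 h library in place of the 0 h library put 1 lower (12.5%). Between 0 and 12 h, 7 members were higher past 1.5-fold (18.2% of all genes). At a minimum mean of 100 counts, 2 were higher and 6 lower past 2-fold (5.15% and 2.69%), since fewer genes were tested. Means of 8 and 12 h against means of 0, 20 and 40 min put 5 lower (2.9%). Where no cause is named, the cause was not tested. By labelled CPM, 10 of 43 half-lives lay outside their interval by share, among them IFI6 at 22.0 h, and without the 12 h library BST2 was at 22.4 h. Counts limit the ratios of OAS1, IFI44, HERC6 and TRIM22, at 2 reads each without 4sU, and of GBP1, GBP2 and STAT2, at 0.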
